A study of Mus musculus with 3 samples.

Results

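Pericytes and vascular smooth muscle cells, together called mural cells, were examined in the callus of a healing mouse fracture. A barcode was taken as a mural cell when Rgs5, Notch3, Myh11 and Abcc9 together gave at least 5 unique molecular identifiers (UMIs, each 1 captured transcript). It also had to hold at least 500 detected genes, at most 10% mitochondrial UMIs, fewer than 3 UMIs of the endothelial genes Pecam1, Cdh5 and Egfl7 together, and less than 1% of its UMIs in the cartilage collagen Col2a1. The cells were thus chosen by their counts of these genes. This gave 156 mural cells among 5463 cells that passed the filters on genes and mitochondrial UMIs. There were 82 in the control library, 66 in the library of mice given parathyroid hormone (PTH) and 8 in the library of mice given YKL-05-099 (YKL). For that reason the levels of the 4 genes of the rule are given only as a description.

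Mural cells wrap the endothelial tubes of blood vessels. Pericytes sit on capillaries inside the basement membrane, are held there by endothelial PDGF-B acting on the receptor Pdgfrb, and keep the capillary wall stable. Smooth muscle cells ring arteries, arterioles and veins, and set vessel calibre through actin and smooth muscle myosin. Notch3 in mural cells receives Jagged signals from the endothelium and from neighbouring mural cells, and Abcc9 with Kcnj8 forms the ATP-sensitive potassium channel of pericytes. In bone repair, new vessels grow into the callus, and perivascular cells are studied there as a possible source of bone-forming cells.

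All 3 groups were female C3H/HeJ mice, a strain described by the submitters as slow to heal fractures, 9 weeks old, with a pinned femur broken at mid-shaft. They were injected under the skin every day with saline vehicle (control), with 100 µg/kg of the PTH fragment 1-34, or with 15 mg/kg of YKL-05-099, a small molecule that inhibits salt-inducible kinases, which lie downstream of the PTH receptor Pth1r. The series asks whether inhibiting these kinases stimulates mineralization of the fracture. Callus was taken on day 7 with the marrow avoided, digested with collagenase and profiled by droplet 3′ RNA sequencing, with 1 library per group. The labels do not give the number of mice per library. With 1 library per group no difference had a replicate check and none was tested, so every 95% interval below covers counting error only.

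Mural cells were shallower than the average cell of their library. Their median depth was 7495.5 UMIs in the control, 5670 in PTH and 9066 in YKL, against 11736, 12293 and 25867.5 over all kept cells. Summed over cells they held 755523 control, 488220 PTH and 73313 YKL UMIs, and 1 cell gave 29.7% of the YKL sum. Their median mitochondrial share was 6.53%, 6.73% and 7.24%, which lay near the 6.12%, 6.67% and 6.21% of cells gated as endothelial and above the 3.23%, 4.65% and 1.73% of all kept cells. A few barcode sequences occurred in more than 1 library (8 in control and PTH, 3 in control and YKL, 2 in PTH and YKL), and none of them was a mural cell.

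Mural cells made up a few percent of the captured cells in each library. They were 2.79% of the control cells (95% interval 2.22 to 3.45), 3.45% of the PTH cells (2.68 to 4.37) and 1.32% of the YKL cells (0.572 to 2.58). The control interval overlapped both others, and the PTH and YKL intervals did not overlap. As shares of all kept cells, they also depend on which other cells were captured. Cells gated as cartilage were 1565 of 2944 kept cells in the control, 685 of 1913 in PTH and 380 of 606 in YKL. Shares without the cartilage cells were not compared. The limit on mitochondrial UMIs also weighed on the shares of kept cells. It removed 36 control, 52 PTH and 3 YKL barcodes that met the rest of the rule, or 30.5%, 44.1% and 27.3% of such barcodes, against 14.3%, 21.5% and 11.8% of all barcodes with at least 500 genes. With a limit of 20% the PTH share was 4.70%, and with 5% the shares were 0.969%, 1.02% and 0, with 3 cells the limit that a count of 0 allows in YKL. Whether a treatment changed how many mural cells the callus held, or how many survived digestion, cannot be told apart.

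Within the rule, Rgs5, a regulator of G protein signalling typical of mural cells, gave the most UMIs in 76 of the 82 control cells, 61 of the 66 PTH cells and 4 of the 8 YKL cells. Smooth muscle myosin heavy chain, Myh11, led in 3 cells of each library. All 4 genes were detected together in 54 control, 35 PTH and 3 YKL cells. The edge of the rule was thinly populated. Exactly 5 UMIs were found in 1 control and 2 PTH cells, which held no Rgs5 and 3 and 5 Acta2 UMIs, and exactly 4 UMIs in 1 control, 3 PTH and 2 YKL cells left outside, which held 0, 23 and 1 Acta2 UMIs.

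Genes outside the rule bore the label out. Kcnj8, the channel partner of Abcc9, was at 277 CPM (UMIs per 1000000 UMIs of the summed cells) in control mural cells (240 to 317), 428 CPM in PTH (372 to 490) and 68.2 CPM in YKL (22.1 to 159). A Kcnj8 UMI was found in 53 of 82 control, 43 of 66 PTH and 3 of 8 YKL mural cells, or 64.6% of the control and 65.2% of the PTH cells, against 1.80% and 0.697% of endothelial cells, whose median depth was 5635 and 5974 UMIs. With each cell thinned to 2000 UMIs and shallower cells left out (1 control and 3 PTH mural cells), the shares were 40.7% and 44.4% in mural cells. In endothelial cells they were 0.645% in the control and 0 of 257 cells in PTH, where 3 cells is the limit that a count of 0 allows. Pdgfrb, the receptor that anchors pericytes, was at 589, 705 and 682 CPM and was found in 79, 60 and all 8 cells. Higd1b, a mitochondrial protein gene used as a pericyte marker, was at 691, 696 and 477 CPM, and it was at 2.55 CPM in control and 0.433 CPM in PTH endothelial cells. Smooth muscle actin, Acta2, was at 8992, 7478 and 23775 CPM, and the actin-binding Tagln at 5781, 4717 and 21033 CPM. Acta2 was thus highest in the YKL library, where a single cell gave 53.0% of its UMIs.

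Markers of other cells ranged from absent to abundant. Among endothelial markers the rule did not use, Emcn, endomucin, was at 17.2 CPM in control and 32.8 CPM in PTH mural cells and 0 in YKL, against 623, 654 and 825 CPM in the endothelial gate, and the tight junction gene Cldn5 was at 0 in every library. No UMI of 5 lymphocyte markers was found in any mural cell, and 5 macrophage markers gave 1 UMI in the control, 3 in PTH and 0 in YKL. Fibroblast markers summed to 592, 1274 and 54.6 CPM, with 54.4% of the control sum and 33.9% of the PTH sum in 1 cell each, while the rest of the cells in each library stood at 2732, 4782 and 2722 CPM. Cartilage markers summed to 945, 332 and 491 CPM, far under the 40464, 26033 and 46540 CPM of the rest, but at least 3 such UMIs were present in 58 control, 23 PTH and 5 YKL mural cells. Col2a1, which the rule limits, is among these 6 markers, so part of this gap was fixed by the choice of cells. Tendon markers summed to 37.1 CPM in control and 1348 CPM in PTH, against 88.1 and 1779 CPM in the rest, and to 4 UMIs in YKL. Red cell markers were the most abundant, at 67537, 6761 and 723 CPM, against 25360, 5796 and 3098 CPM in the rest, and at least 3 of their UMIs were in all 82 control, 52 PTH and 7 YKL mural cells. Their part in the results was measured only by leaving out the richest cells, as given below. Some symbols listed as pericyte markers are shared with cartilage in this tissue. Cspg4, the NG2 proteoglycan, was at 82.1 CPM in control mural cells and 251 CPM in cells gated as cartilage, and Cox4i2, a lung-type cytochrome oxidase subunit, at 281 and 523 CPM.

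**Figure D1:**
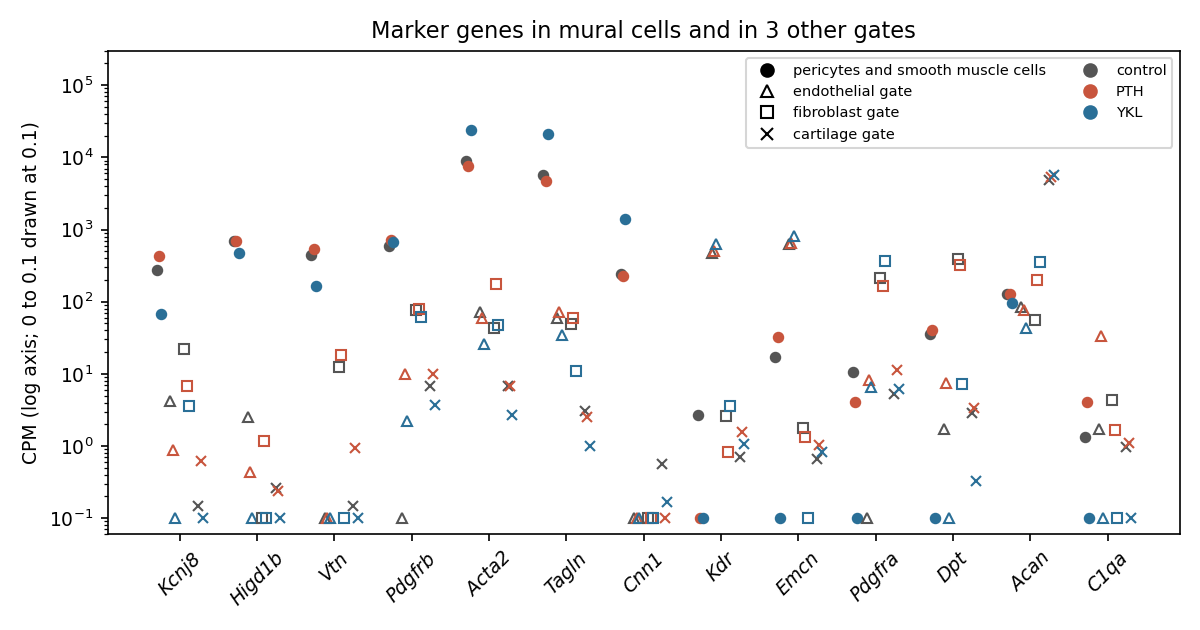
Level of 13 marker genes in CPM (log axis) in pericytes and smooth muscle cells (filled circles) and in the endothelial, fibroblast and cartilage gates, coloured by library, 1 point per library and gate. Kcnj8, Higd1b, Vtn, Acta2, Tagln and Cnn1 are higher in mural cells than in all 3 other gates in each library, and Kdr, Dpt and Acan are not.

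Contractile and pericyte genes were higher in mural cells than in the other cells almost throughout, and genes of vessel tone in part. Of 11894 genes measured in mural cells and all other kept cells, 9.61% were at least 2-fold higher in mural cells in both the control and the PTH library and 6.78% were lower. Of 34 contractile genes, 31 had enough UMIs, and 28 of these were higher and 0 lower. Cnn1, calponin, an actin-binding brake on myosin, was at 240 CPM in control mural cells against 0.697 CPM elsewhere, a 344-fold difference, and 206-fold higher in PTH. Lmod1, a leiomodin that starts actin filaments in smooth muscle, was 223-fold and 372-fold higher. Of 32 measured vessel tone genes 13 were higher, 5 lower and 14 neither, with median log2 ratios of 0.44 and 0.43. Both subunits of the nitric oxide receptor were among the top genes, Gucy1a1 at 154-fold and 89.6-fold and Gucy1b1 at 152-fold and 89.0-fold. So were the adrenergic receptor Adra2a (94.0-fold and 198-fold), the neuropeptide Y receptor Npy1r (127-fold and 566-fold) and the olfactory-type receptor Olfr558 (210-fold and 155-fold). Of 23 measured pericyte genes, 19 were higher and 0 lower. Going the other way, 16 of 19 genes of glycolysis and the hypoxia response were lower in mural cells than in the rest, which includes the cartilage, and 0 were higher.

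Against endothelial cells, their neighbours in the vessel wall, 6.93% of 5184 genes were at least 2-fold higher in mural cells in both libraries and 11.9% lower. Vtn, vitronectin, was at 438 CPM in control and 528 CPM in PTH mural cells and at 0 in endothelial cells, so it was at least 172-fold and at least 407-fold higher by a floor of 3 counts over the gate. Ramp1, which turns the calcitonin receptor-like receptor into a receptor for the vasodilator CGRP, was 147-fold (40.2 to 1225) and 343-fold (93.2 to 2857) higher, with 2 endothelial UMIs in each library. The endothelin receptor Ednra, also without a UMI in control endothelial cells, was at least 86.2-fold and 135-fold higher, at 220, 234 and 246 CPM in control, PTH and YKL mural cells. Of 11 measured Notch genes 6 were lower than in endothelial cells and 1, Heyl, was higher. Heyl, a Notch target of mural cells, had no UMI in control endothelial cells and was at least 37.4-fold higher there and 65.4-fold higher in PTH. Hey1, a related target, stood at 0.195 and 0.191 times its endothelial level and Notch1 at 0.234 and 0.283 times, while the ligand Jag1 was at 1.5-fold and 1.75-fold. Both cell types had like levels of basement membrane collagen IV. Col4a1 was at 2277, 2224 and 2878 CPM in mural cells, 0.967 and 0.868 times the endothelial level in control and PTH, and 14.8-fold and 16.1-fold above the fibroblast gate. Pdgfa, a ligand of the PDGF receptors, was 11.5-fold and 7.20-fold above endothelial cells, and the chemokine Cxcl12, at 275, 256 and 95.5 CPM, was below them at 0.306 and 0.238 times.

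Against cells gated as fibroblasts, 6.17% of 4994 genes were at least 2-fold higher in both libraries and 7.83% lower. Contractile genes were higher in 23 of 26 measured cases and lower in 0, with Tagln 119-fold and 80.1-fold higher. Genes of fibrillar matrix went the other way, with 12 of 26 lower and 1 higher than in fibroblasts, although 19 of 26 were higher and 0 lower than in endothelial cells. Col1a1, the main collagen of bone and skin, was at 1841 CPM in control, 3685 CPM in PTH and 873 CPM in YKL mural cells, and at 9072, 17345 and 14111 CPM in the fibroblast gate. Sfrp4, a secreted Wnt modulator, was at 13.2 CPM in control mural cells and 0 in PTH, against 1106 and 842 CPM in fibroblasts.

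Mural cells were then divided by the balance of the genes in the label. A cell with more Myh11 than Abcc9 and Kcnj8 UMIs was placed on the Myh11 side, a cell with fewer on the Abcc9 side, and ties were left out, so these 3 genes carry no result here. The Myh11 side held 40 of 81 control cells (49.4%, 95% interval 38.1 to 60.7), 28 of 59 PTH cells (47.5%, 34.3 to 60.9) and 5 of 7 YKL cells (71.4%, 29.0 to 96.3). The 3 intervals overlapped. The division is a cut through a range, since 7 control, 17 PTH and 2 YKL cells lay within 1 UMI of it. Depth was close on the 2 sides, at a median of 7834.5 UMIs on the Myh11 side and 7036 on the Abcc9 side in the control, and 6155.5 and 5140 in PTH.

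The contractile genes, 34 in number without Myh11, differed between the sides cell by cell. On the control Myh11 side they took a median of 5.30% of a cell's UMIs, from 1.29% to 12.2%, and on the Abcc9 side 1.24%, from 0.103% to 6.78%. In PTH the medians were 4.24% (1.32% to 10.3%) and 1.15% (0.408% to 4.32%). The ranges overlapped in both libraries, with the median of each Myh11 side above the upper quartile of its Abcc9 side (2.12% and 1.67%). Rgs5, the main gene of the rule, is given as a description only. Its median was 50.5 UMIs per 10000 on the Myh11 side and 55.6 on the Abcc9 side of the control, and 68.0 and 76.7 in PTH. Across the 82 control cells the rank correlation of Acta2 with Tagln was 0.92, and across the 66 PTH cells it was 0.86. The points of these correlations are cells of 1 library that share its depth and digestion.

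**Figure D2:**
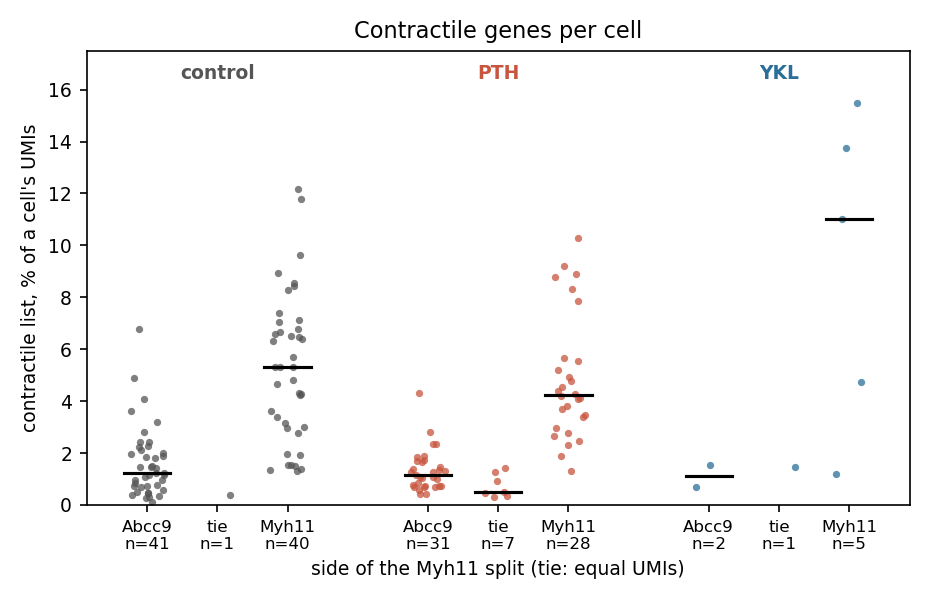
Share of each mural cell's UMIs in the 34 contractile genes (y axis, percent), by library and side of the Myh11 split; each point is a cell, each bar a median. Medians are 5.30% and 1.24% on the Myh11 and Abcc9 sides of the control and 4.24% and 1.15% in PTH, and the 3 highest YKL cells lie between 11.0% and 15.5%.

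Gene by gene, the side with more Myh11 had the other parts of the smooth muscle apparatus as well. In the summed counts, 3.17% of 2367 genes were at least 2-fold higher on the Myh11 side in both libraries and 1.23% lower in both. In the control alone the shares were 5.96% and 2.53%, and in PTH alone 5.53% and 5.49%. Of the 26 measured contractile genes 21 were higher in both and 0 lower, with a median log2 ratio of 1.73 in the control and 1.92 in PTH, while the median over all genes was 0.08 and -0.05. Cnn1 was at 422 CPM on the Myh11 side and 47.4 CPM on the Abcc9 side of the control, 8.92-fold higher (95% interval 5.25 to 16.3), and at 510 and 13.0 CPM in PTH, 39.2-fold higher (13.1 to 193). Acta2 was 4.89-fold (4.57 to 5.25) and 6.92-fold (6.29 to 7.63) higher, Tagln 4.83-fold and 11.0-fold, and the enteric-type actin Actg2 5.43-fold and 8.05-fold. Desmin, Des, the intermediate filament of muscle, was among the 5 contractile genes that missed the criterion, at 1.52-fold and 1.37-fold. These genes belong to the same programme as Myh11, by which the cells were divided.

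Genes outside the contractile list were also among the highest on the Myh11 side. P2rx1, the ATP-gated channel through which sympathetic nerves contract arteries, had 42 UMIs on the control Myh11 side and 34 in PTH and none on either Abcc9 side, at least 11.3-fold and at least 12.3-fold higher by the floor of 3 counts. It was the only gene of 12 measured in the vessel tone list to pass 2-fold higher in both libraries, and 0 were lower. Eln, elastin, the elastic protein of arteries, was 4.90-fold (3.60 to 6.80) and 5.35-fold (3.66 to 8.03) higher. Fbxl22, an F-box protein of muscle, was 17.9-fold (7.44 to 56.2) and 27.8-fold (7.30 to 235) higher. Map3k7cl was 16.1-fold and 21.1-fold (6.86 to 105) higher, and the potassium channel subunit Kcnab1 6.72-fold and 12.3-fold (3.88 to 62.8). Cd93, a receptor better known from endothelial cells, was 6.12-fold and 7.08-fold higher. The growth factors Tgfb2 (2.36-fold and 3.54-fold) and Tgfb3 (4.03-fold and 3.27-fold) were the 2 of 8 measured vessel signalling genes to pass, with 0 lower. Crtc3, a CREB coactivator that salt-inducible kinases hold back, was 3.12-fold (1.78 to 5.80) and 2.05-fold (1.10 to 3.94) higher, the only one of 9 measured genes of the kinase pathway to pass. Among all genes 3.17% were higher in both libraries and 1.23% lower, and a count of 1 gene does not set a list apart from them.

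The pericyte list did not move as a block between the sides. Of 19 measured genes 4 were at least 2-fold higher on the Myh11 side in both libraries, 2 were lower and 13 were neither. Over all genes 3.17% were higher and 1.23% lower. The gap junction gene Gja4 was 2.33-fold and 2.61-fold higher, the transcription factor Tbx2 2.48-fold and 2.94-fold, Cspg4 2.32-fold and 2.52-fold and Nrip2 6.09-fold and 4.17-fold. Steap4, a metalloreductase, was 2.56-fold (1.66 to 4.0) and 4.48-fold (2.59 to 8.22) higher on the Abcc9 side, and Art3 2.25-fold and 3.10-fold. Higd1b differed little, at 0.954 (0.800 to 1.14) and 0.952 (0.761 to 1.19) times, and Col4a1 likewise at 0.999 (0.907 to 1.10) and 0.858 (0.757 to 0.971) times. The metallothionein Mt1, which binds zinc, was 4.78-fold (3.58 to 6.46) and 6.07-fold (3.68 to 10.6) higher on the Abcc9 side, and Cygb, cytoglobin, 2.65-fold and 3.53-fold. Ecrg4 and C1qtnf3 were further up on that side, at 27.9-fold (7.29 to 238) and 59.7-fold (10.3 to 2394) and at 10.1-fold and 14.2-fold, but in few cells. Over all mural cells, ties included, Ecrg4 was detected in 11 control and 9 PTH cells. Of its UMIs 77.6% and 40.5% came from 1 cell each. In PTH 1 of its 131 UMIs lay on the Myh11 side and 65 on the Abcc9 side. The others were in tied cells, outside the ratio. Without the 6 control and 6 PTH cells that held at least 10 UMIs of tendon or fibroblast genes, C1qtnf3 in PTH turned to 1.70-fold higher on the Myh11 side.

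**Figure D3:**
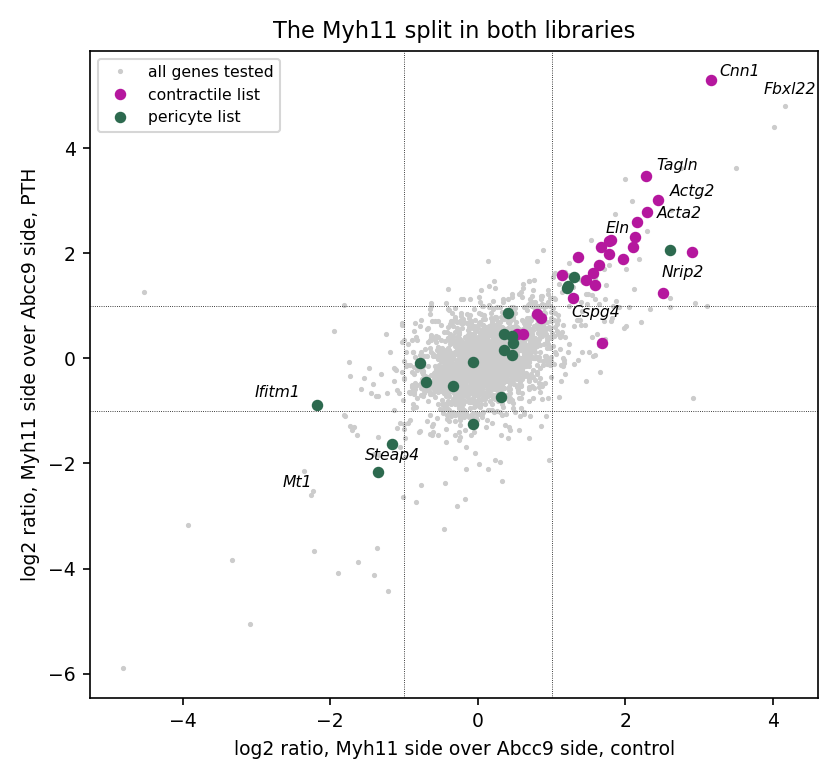
Log2 ratio of the Myh11 side over the Abcc9 side in the control (x axis) and in PTH (y axis), 1 point per gene, with contractile genes in purple, pericyte genes in green and dotted lines at 2-fold. Of 26 contractile genes 21 lie in the upper right beyond both lines, and pericyte genes lie on both sides of 0.

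Promoters of the genes that differed together between the sides were searched for the CArG box, the site of serum response factor, which with myocardin drives contractile genes. The windows ran from 250 bases before to 50 after each RefSeq start (GRCm38.p6). The pattern covers both strands at once. A CArG box was present for 488 of 27025 genes, or 1.81%. It was present for 4 of the 30 contractile genes with a window (13.3%), for 0 of 18 pericyte genes, and for Fbxl22 among 7 of the genes named as higher on the Myh11 side. Of these 5 genes, all but Ldb3 had enough UMIs to be compared between the sides, and the sequences are printed to show the box in each. For Vcl (plus strand, chr14:20929148-20929397) and Myl9 (plus strand, chr2:156775214-156775419) the bases before the start that no annotated exon covers are given. For Fbxl22 (minus strand, chr9:66514796-66514825) and Myl6 (minus strand, chr10:128493040-128493069) the box lies in exons that GENCODE vM21 annotates for Usp3 and for Myl6, and only the 30 bases around it are given. The box is in capitals.
Vcl: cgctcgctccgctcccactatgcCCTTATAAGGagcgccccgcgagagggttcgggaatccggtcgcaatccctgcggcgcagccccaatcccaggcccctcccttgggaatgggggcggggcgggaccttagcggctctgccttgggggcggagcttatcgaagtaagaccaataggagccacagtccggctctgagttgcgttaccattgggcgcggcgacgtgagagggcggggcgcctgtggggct
Myl9: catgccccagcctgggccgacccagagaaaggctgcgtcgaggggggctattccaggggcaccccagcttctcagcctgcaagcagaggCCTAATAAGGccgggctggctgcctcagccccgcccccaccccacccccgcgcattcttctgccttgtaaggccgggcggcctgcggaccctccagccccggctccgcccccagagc
Fbxl22: aaaagaaatcCCTTTTAAGGaaaacttgta
Myl6: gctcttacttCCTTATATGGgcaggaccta
In Vcl, which encodes the adhesion protein vinculin, the box begins 227 bases before the start, and in Myl9, the regulatory light chain of smooth muscle myosin, 161 bases before. In Fbxl22 it begins 222 and in Myl6, the essential light chain, 50 bases before the start. On the Myh11 side these genes were 2.20-fold (Vcl), 3.42-fold (Myl9), 17.9-fold (Fbxl22) and 2.45-fold (Myl6) higher in the control and 2.98-fold, 3.97-fold, 27.8-fold and 2.23-fold higher in PTH. Genes without a box in this window, such as Cnn1, differed as much, and the match describes these letters only.

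PTH was set against vehicle to see whether the mural cells carried a different programme under the hormone. Among the 3653 genes that reached 50 UMIs when the 2 libraries were added, 2.52% were at least 2-fold higher in PTH and 1.23% lower. None of the 28 measured contractile genes passed 2-fold either way, with a median log2 ratio of -0.03 against 0.08 over all genes. Tagln was at 0.816 times the control level (95% interval 0.775 to 0.858), Acta2 at 0.832 times (0.799 to 0.866) and Cnn1 at 0.949 times (0.742 to 1.21). Actg2 came nearest to the criterion, at 614 CPM in the control and 309 CPM in PTH, 0.504 times (0.416 to 0.606). It was lower on both sides of the Myh11 split, at 0.611 times on the Myh11 side and 0.412 times on the Abcc9 side. Without the control cell richest in Actg2, and with all PTH cells kept, it stood at 0.561 times.

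Pericyte and vessel wall genes passed the criterion in single cases, where 2.52% of all genes were higher and 1.23% lower. Counts this small do not set these lists apart from all genes. Several of the genes named had intervals above 1. Of 20 measured pericyte genes 1 passed upward and 0 downward, and the median log2 ratio was 0.20. That gene was Ifitm1, an interferon-inducible membrane protein, at 229 CPM in the control and 488 CPM in PTH. It was 2.13-fold higher (1.74 to 2.60), and 1.77-fold without the PTH cell richest in it. Rgs4, a regulator of G protein signalling, was just short at 1.97-fold (1.56 to 2.51), and Kcnj8 was 1.55-fold higher (1.27 to 1.88). Pdgfrb was at 1.20-fold (1.04 to 1.38) and Cspg4 at 1.42-fold (0.975 to 2.07). Of 14 vessel tone genes and 7 Notch genes none passed, with median log2 ratios of 0.25 and 0.43. Ednra was at 1.06-fold (0.830 to 1.36), Heyl at 1.78-fold (1.29 to 2.48) and Hes1, another Notch target, at 1.57-fold (1.22 to 2.02). In the basement membrane list 1 of 25 genes, Mfap4, was higher and 0 lower, and Col4a1 was at 0.977-fold (0.905 to 1.05). Sparcl1, a matrix protein of vessel walls, was higher by less than the criterion, at 1182 CPM in the control and 2067 CPM in PTH, 1.75-fold (1.60 to 1.92), and the ratio was 1.83 on the Myh11 side and 2.08 on the Abcc9 side.

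PTH acts through Pth1r, which raises cyclic AMP. Pth1r was low in mural cells, at 62.2 CPM in the control, 119 CPM in PTH and 109 CPM in YKL, from 47, 58 and 8 UMIs. The PTH level was 1.91-fold the control level (1.28 to 2.87). Cartilage cells, where the receptor is abundant, stood at 959, 1096 and 1834 CPM. The fibroblast gate stood at 46.7 CPM in the control and 90.5 CPM in PTH, so a higher PTH level was also seen there. Mural cells were at 1.33-fold (0.880 to 2.01) and 1.31-fold (0.984 to 1.72) the fibroblast level. A Pth1r UMI was present in 41.5% of control and 47.0% of PTH mural cells, against 9.58% and 12.5% of endothelial cells. In cells thinned to 2000 UMIs these shares were 13.6% and 12.7% in mural cells and 3.23% and 4.67% in endothelial cells, so the higher PTH level was not matched by a higher thinned share. The part of free RNA from cartilage in these values was not tested. None of 11 measured genes of the kinase pathway passed 2-fold in PTH. The kinases themselves were too few in UMIs for a ratio. Sik1 was at 15.9 CPM in the control (8.21 to 27.7), 49.2 CPM in PTH (31.5 to 73.1) and 27.3 CPM in YKL (3.30 to 98.5). Sik2 was at 11.9 and 18.4 CPM in control and PTH, and in YKL it had no UMI, where 3 counts would be 40.9 CPM. Sik3 was at 29.1, 43.0 and 40.9 CPM.

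Of 14 measured immediate early and cyclic AMP response genes 2 passed upward in PTH, 0 downward and 12 neither, where 2.52% of all genes passed upward. The median log2 ratio of the list was 0.56, against 0.08 over all genes. Dusp1, a phosphatase that switches off MAP kinases, was at 204 CPM in the control and 496 CPM in PTH. It was 2.43-fold higher (1.98 to 3.0), and 2.09-fold without the PTH cell richest in it. Klf4, a transcription factor that opposes the contractile programme, was 2.30-fold higher (1.52 to 3.51). The ratio for Klf4 was 3.0 on the Abcc9 side and 0.742 on the Myh11 side, the latter from 28 UMIs over both libraries. For Dusp1 the ratio was 3.33 and 1.67 on the same sides. Fos and Junb, subunits of AP-1, were at 1.52-fold (1.38 to 1.66) and 1.51-fold (1.31 to 1.74). The same genes answer to tissue digestion. In a list of 18 measured dissociation genes, which shares 6 symbols with the cyclic AMP list, 1 was higher (Btg2, an antiproliferative gene, 2.09-fold, 1.59 to 2.75) and 0 lower, with a median of 0.23, while the heat shock gene Hspa1a stood at 0.755-fold. The part of digestion in these differences was not tested. Fos also differed in other gates, at 316 CPM in control and 988 CPM in PTH fibroblasts. In endothelial cells it was at 316 and 730 CPM. Dusp1 was at 137 and 246 CPM in the fibroblast gate, and at 274 and 242 CPM in the endothelial gate. Whether such differences are particular to mural cells was not tested.

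**Figure D4:**
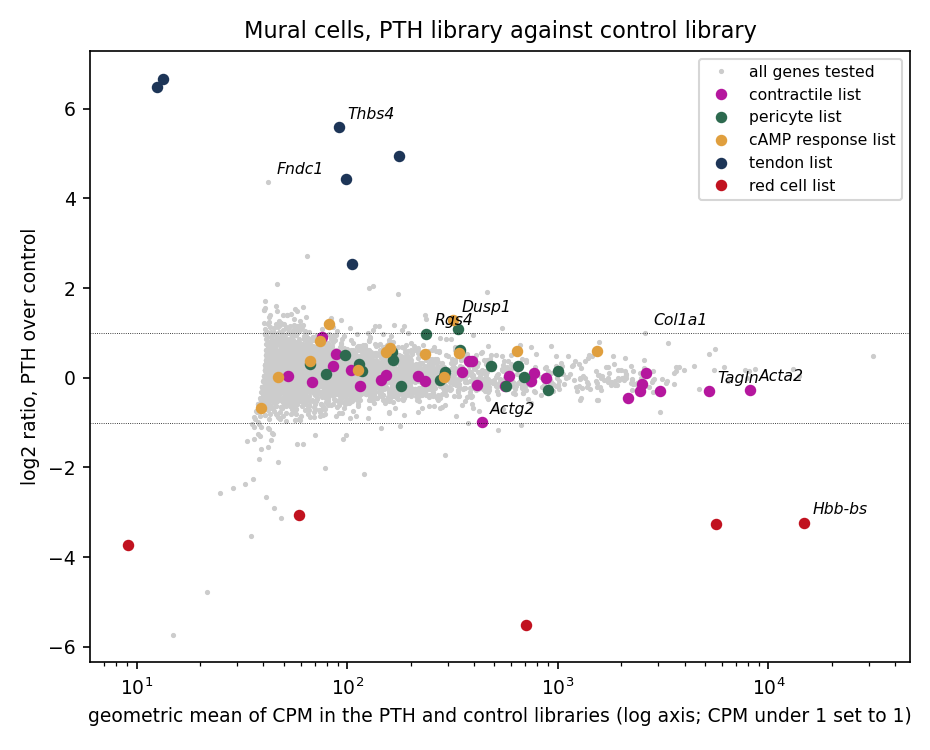
Log2 ratio of PTH over control in mural cells (y axis) against the geometric mean level of the gene in CPM (x axis, log), 1 point per gene, with gene lists in colour and dotted lines at 2-fold. The 28 contractile genes lie between the lines, the 6 tendon genes above them and the 5 red cell genes below.

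The largest differences between PTH and control rested on few cells. All 6 measured tendon genes were higher in PTH, Thbs4 at 13.2 CPM in the control and 635 CPM in PTH, but 97.4% of the 1271 tendon UMIs of the PTH mural cells came from 4 cells. The 3 richest held 517, 490 and 221. Fndc1 (20.6-fold higher), Mfap4 (6.60-fold), Cthrc1 (3.68-fold) and Igf1 (4.0-fold), genes of fibroblasts and matrix, were found in 6 to 7 PTH mural cells each, and Igf1 was at 0.618 times on the Myh11 side against 12.2-fold on the Abcc9 side, the former from 4 UMIs in all. Col1a1 was 2.0-fold higher (1.87 to 2.15) and Timp1, an inhibitor of matrix proteases, 2.01-fold (1.55 to 2.63). They were the 2 of 26 fibrillar matrix genes to pass, with 0 lower, where 2.52% of all genes were higher and 1.23% lower. Without the 6 cells of each library that held at least 10 UMIs of tendon or fibroblast genes, Col1a1 was at 0.680 times and Timp1 at 0.977 times. Their part in these ratios is thus measured, and the origin of the matrix UMIs in those cells, doublets included, was not tested.

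Red cell and cartilage genes ran lower in PTH mural cells. All 5 measured red cell genes were at least 2-fold lower, where 1.23% of all genes were lower and 2.52% higher. Haemoglobin took 6.75% of the UMIs of control mural cells, 0.676% in PTH and 0.0723% in YKL, and 96.1% of the control amount lay in 15 cells, of which the highest was 73.4% haemoglobin. Of 10 measured cartilage genes 6 were lower and 1, Comp, higher. In the control, 38.1% of the summed UMIs of the 6 cartilage markers came from 1 mural cell. Itm2a was at 0.226 times (0.146 to 0.337), with 40.6% of the control UMIs in 1 cell. Lower genes that were spread over more cells were Fabp4, a fatty acid carrier of small-vessel cells and adipocytes, at 0.484 times (0.415 to 0.562), and S100a4, a calcium-binding protein of fibroblast-like cells, at 0.444 times (0.372 to 0.527). Fabp4 was below the control on both sides of the split, at 0.586 and 0.354 times, and S100a4 on the Myh11 side only, at 0.318 times against 1.18.

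Among genes detected widely, a neural adhesion gene and a transcriptional repressor were higher in PTH on both sides of the split. Ntm, neurotrimin, was found in 25 of 66 PTH and 14 of 82 control cells and was 4.28-fold higher (2.41 to 7.95), with ratios of 5.10 on the Myh11 side and 2.85 on the Abcc9 side. Foxn3, a forkhead repressor, was 2.91-fold higher (1.75 to 4.93), with 2.57 and 2.75. Timp2, another protease inhibitor, was 2.17-fold higher (1.86 to 2.54), with 1.11 and 3.0. Of 13 measured vessel signalling genes 1 was higher and 0 lower, where 2.52% of all genes were higher and 1.23% lower. It was the semaphorin and VEGF co-receptor Nrp2 at 2.06-fold (1.25 to 3.43), and 1.61-fold without the PTH cell richest in it. Of 10 inflammation genes 1 was lower, the chemokine Cxcl14 at 0.182 times, and of 9 interferon genes and 5 cell cycle genes none passed. A UMI of the division genes Mki67 or Top2a was present in 10 control, 7 PTH and 0 YKL mural cells, and at least 3 such UMIs in 3, 3 and 0.

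The YKL library had 8 mural cells, fewer than the 20 set as the minimum for a ratio, so levels alone are given. The 8 cells fell apart by contractile content. Acta2 per 10000 UMIs was 1.60, 15.2, 23.6, 31.4, 79.2, 163, 382 and 425 in the single cells, and the contractile list took 0.703% to 15.5% of their UMIs with a median of 3.14%. The 3 cells at 11.0%, 13.8% and 15.5% had no Rgs5 UMI and no Abcc9 or Kcnj8 UMI, and Myh11 gave 41, 62 and 127 UMIs in them. In 3 others Rgs5 was at 180, 190 and 192 per 10000. Cnn1 was at 1405 CPM (1147 to 1704), Eln at 1487 CPM and Heyl at 232 CPM (135 to 371), and Adra2a at 13.6 CPM (0.345 to 76.0) from 1 UMI. Levels set by so few cells describe those cells, and no direction against the other libraries is read from them.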

How the data were processed

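Single-cell RNA sequencing had been done on day 7 fracture callus in 3 libraries, 1 per group. The files deposited are matrices of unnormalized UMI counts that the authors obtained by Cell Ranger (version 4.0.0 in the file headers) from a 3′ kit, per the labels' protocols. The submitters' processing notes also name Seurat and the mm10 build, without their role. Each matrix had 32285 gene rows. The libraries held 55250651 (control), 33981167 (PTH) and 19424073 (YKL) UMIs in 8021, 5286 and 1500 barcodes.

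Mural cells were found by the rule stated in the results. The cells and the 26 gene lists were chosen with earlier results of these data known. Comparison gates held no more than 2 UMIs of the rule genes: endothelial cells had at least 5 UMIs of Pecam1, Cdh5 and Egfl7, fibroblasts at least 5 of Pdgfra, Dpt, Clec3b and Pi16, and cartilage cells at least 1% Col2a1. They held 505, 565 and 2630 cells over all libraries. No doublet caller was run. UMIs were summed over cells and scaled to CPM. Ratios used genes of at least 50 UMIs over both libraries (30 over both sides in each library for the split) and carry exact conditional binomial 95% intervals, levels exact Poisson intervals and shares exact Clopper-Pearson intervals. A gene at 0 was held at a floor of 3 counts. A 2-fold difference was the criterion throughout, and no p-values were computed.

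Named genes were the 5 markers and 13 others fixed by name, the 12 higher and 12 lower whose interval stood farthest from 1 for PTH against control (at least 50 CPM and 5 cells), the 12 highest and 12 lowest by the smaller ratio of both libraries for the split, the 15 highest and lowest against other cells, and members of the lists by size or level. Vcl, Myl6, Ldb3, Des, Hspa1a and a few other list members were picked after their values were seen. Genes of other cell types were described as lists. Results for 2 genes are not reported here. Alternatives changed the rule, filters, scaling, weighting, depth and cells. Python 3.11.15 with numpy 2.4.6, pandas 2.3.3 and scipy 1.17.1 was used. PTH and control mural cells were also simulated at their own depths from the summed control profile, with some genes changed by set ratios in PTH. There 95.7% of 3279 unchanged genes had intervals that held the true ratio and 0.579% passed 2-fold. The simulated cells of a library differed by counting only, so these values check the calculation and give no error rate for the real, uneven cells.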

Additional observations from a re-analysis of the deposited data

Results flagged for a closer look

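Some genes had PTH over control ratios above 1 on one side and below 1 on the other side of the Myh11 split, and the difference between the sides was not tested. The log2 ratio of PTH over control on the Abcc9 side exceeded that on the Myh11 side by 4.30 for Igf1, 4.13 for Col14a1, 2.53 for Timp1, 2.25 for Col1a1, 2.02 for Klf4, 1.89 for S100a4 and 1.10 for Ecrg4. Col14a1, a fibril-associated collagen, was 5.26-fold higher in PTH on the Abcc9 side and at 0.301 times on the Myh11 side. Of its UMIs 62.6% in the control and 58.6% in PTH were in 1 cell each. The ratio on the Abcc9 side rested on 29 UMIs over both libraries. For S100a4 the ratios were 1.18 and 0.318, for Klf4 3.0 and 0.742, for Timp1 2.88 and 0.498, for Col1a1 2.78 and 0.586, for Igf1 12.2 and 0.618, and for Ecrg4 1.98 and 0.927. On the Myh11 side Igf1 had 4 UMIs and Ecrg4 3 UMIs over both libraries, too few to read a direction from. Klf4 had 28 UMIs there. No interval is given for the ratios on single sides, so the other directions are a description as well.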

How the results depend on the processing

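Results were recomputed under up to 18 other settings (those of the split not under the settings that keep 1 side), 5 of which (a mitochondrial limit of 20%, each side alone, and mural cells above 1% haemoglobin or with at least 10 tendon or fibroblast UMIs left out) were chosen after seeing the data. No paired analysis was possible because each group has 1 library. The share of mural cells moved with the mitochondrial limit, to 0.969% (control), 1.02% (PTH) and 0 (YKL) at 5% and to 4.70% (PTH) at 20%. The count of genes at least 2-fold higher in PTH, 92, became 43 without the deepest 10% of cells, 274 and 31 with the UMI minimum halved and doubled, 16 in thinned cells, 54 without the tendon or fibroblast UMI cells and 28 on the Myh11 side. The count lower, 45, became 27 with at least 10 rule UMIs, 24 without the deepest cells, 134 and 17 with the minimum halved and doubled, 68 with cells weighted equally and 12 in thinned cells. For the split, the 75 genes higher became 24 at 5% mitochondrial UMIs, 131 and 46 with the minimum halved and doubled and 25 thinned, and the 29 lower became 8, 66, 13 and 5, and 16 without the deepest cells. As reported, 3653 genes were measured for PTH over control and 2367 for the split. Fewer genes pass the UMI minimum where cells are thinned or left out or the minimum is doubled, and more where it is halved. The counts above are thus not shares of the genes measured, and otherwise the cause was not tested.

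Of 1667 single-gene values under other settings 1353 stayed within counting error and 296 moved beyond it. The other 18 belonged to ratios past 2-fold as reported and turned direction. Smaller ratios that crossed 1 were not counted as turned. Halving or doubling the UMI minimum does not enter these ratios, and leaving out barcodes shared between libraries removed no mural cell. The 98 values under each of those settings could therefore not change. For PTH over control, on the Myh11 side alone Ecrg4 turned to 0.927 and Igf1 to 0.618, from 3 and 4 UMIs. On that side Col1a1 turned to 0.586, Klf4 to 0.742 from 28 UMIs, and Timp1 to 0.498. On the Abcc9 side alone S100a4 turned to 1.18 and Col14a1 to 5.26, the latter from 29 UMIs. Without any endothelial UMI Col1a1 turned to 0.879 and Dcn to 0.813, without the deepest cells Col1a1 to 0.665, without the tendon or fibroblast UMI cells Col1a1 to 0.680 and Timp1 to 0.977, without haemoglobin-rich cells Bpgm to 1.01, and in thinned cells Ccn3 to 0.771. On the Myh11 over the Abcc9 side in PTH, C1qtnf3 turned to 1.27 at 5% mitochondrial UMIs, 1.82 without the deepest cells and 1.70 without the tendon or fibroblast UMI cells, and Vstm4 to 1.27 at 5%. Cells of few UMIs limit what can be seen: a gene at 0 is below 3.97 CPM in control, 6.14 CPM in PTH and 40.9 CPM in YKL mural cells, by 3 counts.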

Other observations

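Early response genes differed between the sides of the split in the PTH library. Of 12 measured cyclic AMP response genes, 8 were at least 2-fold lower on the Myh11 side in PTH, against 5.49% of all genes, and 1 in the control, against 2.53%, with median log2 ratios of -1.12 and -0.32 against -0.05 and 0.08 over all genes. Cebpb, a transcription factor of the stress and inflammatory response, was 2.08-fold (1.34 to 3.28) higher on the Abcc9 side of the control and 3.24-fold (1.92 to 5.71) in PTH, the 1 gene of the list to pass in both. Fibrillar matrix genes were lower on the PTH Myh11 side in 8 of 25 cases and higher in 1, and in the control lower in 2 and higher in 3. Of 16 measured dissociation genes 7 were lower and 0 higher on the Myh11 side in PTH, and 0 lower and 1 higher in the control. Whether the libraries differ in this, and the part of digestion, was not tested.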
